A study of Mus musculus with 4 samples.

Results

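Calcium that has entered a cell is pushed back out across the plasma membrane by 2 kinds of transporter, the plasma membrane calcium pumps and the sodium-calcium exchangers, and the RNA of both families was read here in adult mouse neural stem cells. The 4 pump genes (Atp2b1, Atp2b2, Atp2b3 and Atp2b4) and the 3 exchanger genes (Slc8a1, Slc8a2 and Slc8a3) were chosen by symbol, 7 of the 32564 genes in the deposited tables, and their 30 transcripts were summed per gene. RNA-seq was done on 4 libraries from gfap:GFP transgenic mice of a mixed CD1 and C57BL/6 background, aged 3 months and untreated. In this transgene a GFAP promoter drives green fluorescent protein, and this promoter is active in astrocytes as well. Cells were sorted as Prom1+, EGFR+ and GFAP+ and are labelled activated. The design text of the series instead speaks of quiescent cells taken after injection of artificial cerebrospinal fluid or of antagomers (antisense inhibitors) to miR-204. The labels were followed, so the libraries form 1 group with no comparison between treatments. The labels do not tie the libraries to separate animals. Each spread and p-value below therefore measures only how these 4 libraries vary, which may be technical.

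The pumps are P-type ATPases that use ATP to extrude calcium with high affinity, and calmodulin that has bound calcium relieves the inhibition exerted by their own C-terminal tail. The exchangers use the sodium gradient, which the sodium pump maintains, and move more calcium per unit time at lower affinity. Atp2b1 encodes PMCA1, the pump found in most tissues. Atp2b2 and Atp2b3 encode PMCA2 and PMCA3, best known from neurons, and PMCA2 also from the hair cells of the inner ear. Atp2b4 encodes PMCA4, a broadly expressed pump that is, beside PMCA1, also found in red blood cells. The exchangers NCX1, NCX2 and NCX3, encoded by Slc8a1, Slc8a2 and Slc8a3, are all found in brain.

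Levels are given in TPM, a share of all transcripts scaled to a fixed total and corrected for transcript length. The libraries held 16978938 to 23727664 estimated counts. The genes that define the sort were present, with Gfap at 107 to 227.1 TPM, Egfr at 71.55 to 121.5 TPM and Prom1 at 14.63 to 31.73 TPM. Markers of other cells were present as well. Summed over their lists they reached 1922 to 2726 TPM for 9 stem cell or astrocyte genes, 1123 to 1395 TPM for 10 neuronal genes, 190.3 to 352.9 TPM for 5 neuroblast genes, 2515 to 4343 TPM for 8 oligodendrocyte genes and 156.9 to 217 TPM for 5 genes of oligodendrocyte precursors. The sums were 109.1 to 354.8 TPM for 7 microglial genes, 598.4 to 1204 TPM for 6 ependymal genes and 59.85 to 2342 TPM for 5 erythroid genes. They were lowest for 6 endothelial or mural genes, at 24 to 43.41 TPM with Cdh5 at 0 in all 4 libraries, and for 3 choroid plexus genes, at 8.345 to 22.82 TPM. Most of the endothelial or mural sum was Pdgfrb, at 19.77 to 38.83 TPM, and most of the choroid plexus sum Folr1, at 7.205 to 22 TPM. Among the oligodendrocyte genes all but Mbp and Mobp were lowest in library 1. In these bulk libraries a smaller number of cells of a type and less RNA per cell cannot be told apart, and which cells the pump and exchanger RNA came from was not tested.

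Pump RNA was far above exchanger RNA. Over protein-coding transcripts the 4 pumps together stood at 67.03, 101.1, 57.47 and 82.99 TPM in libraries 1 to 4 (mean 77.15 ± 19.13, SD, n = 4), and the 3 exchangers at 3.027, 4.29, 2.826 and 2.001 TPM (3.036 ± 0.946, SD, n = 4). The 2 ranges did not overlap, and the pumps were higher in 4 of 4 libraries, by 4.27 ± 0.38 (SD) on the scale of log2 ratios of TPM + 1, or 19.3-fold. The exact two-sided sign-flip test gave p = 0.13 for this ratio, the smallest value that 4 libraries allow, and 0.16 after Benjamini-Hochberg adjustment over the 10 ratios compared. Without transcripts shorter than 300 bases the ratio was 3.57 ± 0.63, or 11.9-fold, and again in the same direction in 4 of 4 libraries.

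Each gene was also set against a level of 1 TPM with limma on log2(TPM + 1), with Benjamini-Hochberg adjustment over 19914 genes. Of these genes 62.8% were called above 1 TPM and 23.2% below it. Atp2b1, Atp2b2 and Atp2b4 were above, Atp2b3 and Slc8a2 below, and Slc8a1 and Slc8a3 in neither class. Thus 3 of 7 members were above and 2 of 7 below, too few genes to read a difference from the shares over all genes. The number above was 4 when TPM was rescaled over nuclear protein-coding genes, and also with protein-coding transcripts only. The median of the members' mean levels was 1.725 TPM, beside 8.337 TPM over all genes tested. In order of their mean level over all transcripts the members ran Atp2b2, Atp2b4, Atp2b1, Slc8a1, Slc8a3, Slc8a2 and Atp2b3. Neighbours in this order overlapped between libraries except for 2 pairs. Every library of Atp2b1 lay above every library of Slc8a1, and the lowest library of Atp2b4, at 17.12 TPM, lay just above the highest of Atp2b1, at 17.06 TPM. The second of these orders turned without the short transcript of Atp2b4 described below. The highest library of Atp2b4, at 5.105 TPM, then lay below the lowest of Atp2b1, at 14.73 TPM. With edgeR's quasi-likelihood test the 3 calls above remained and neither call below 1 TPM did, with adjusted p = 0.216 for Atp2b3 and 0.107 for Slc8a2.

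**Figure D1:**
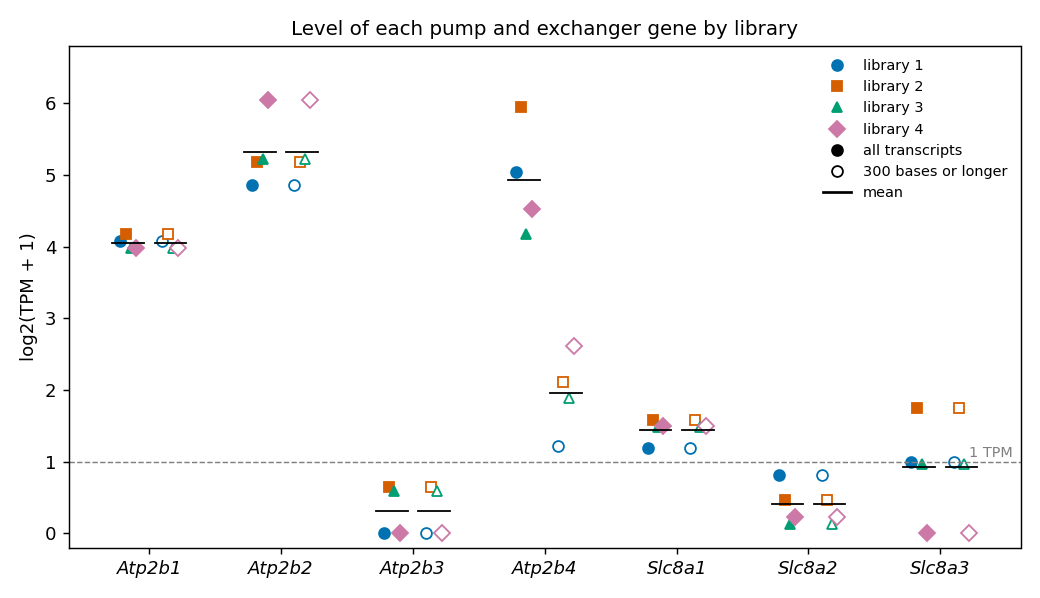
Level of each gene as log2(TPM + 1) in each of the 4 libraries, with the mean as a bar; filled symbols sum all transcripts and open symbols only those of at least 300 bases, and the dashed line marks 1 TPM. The filled and open symbols are at the same height for every gene but Atp2b4, whose mean is 32.97 TPM over all transcripts and 3.11 TPM over those of at least 300 bases.

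Atp2b1, on chromosome 10 (chr10:98914406-99026143, plus strand, GRCm38), was the member that varied least. Its level was 15.91, 17.06, 14.81 and 14.73 TPM in libraries 1 to 4, from 1731, 1729, 1134 and 1638 estimated counts. The 4 values lay close together, with a mean of 15.63 ± 1.10 TPM (SD, n = 4). On the log2(TPM + 1) scale Atp2b1 was 3.05 ± 0.05 (SE) above 1 TPM (limma, adjusted p = 1.259e-06). Its SD on that scale was 0.09, where genes within 2-fold of its level had a median SD of 0.32. The tables list 1 transcript of this gene, the protein-coding Atp2b1-201 of 7130 bases, and GENCODE M21 lists 11, so no statement on its splice forms can be made from these files. Of the 9 promoter windows that RefSeq gives for the members (300 bases, GRCm38.p6), the 2 of Atp2b1 held the most CpG dinucleotides, 54 and 45, beside a median of 7 over 32851 windows.

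Atp2b2, on chromosome 6 (chr6:113743831-114042613, minus strand, GRCm38), had the highest mean of the 7 genes over all transcripts. Over protein-coding transcripts Atp2b4 was higher, at 32.26 TPM beside 28.99 TPM for Atp2b2. Its level was 28.08, 35.22, 36.25 and 65.15 TPM in libraries 1 to 4, from 2475, 2940, 2253 and 5474 estimated counts. Library 4 stood apart above the other three, and the mean was 41.17 ± 16.39 TPM (SD, n = 4). The gene was 4.33 ± 0.25 (SE) above 1 TPM on the log2(TPM + 1) scale (limma, adjusted p = 2.51e-06), and 4.09 above it without library 4. Its SD on that scale was 0.51, beside a median of 0.25 for genes within 2-fold of its level. Protein-coding transcripts made up 68.87, 65.79, 72.15 and 72.61% of its TPM, and gave 19.34, 23.17, 26.16 and 47.3 TPM. Library 4 also had the highest sum of oligodendrocyte, oligodendrocyte precursor and erythroid markers, at 4343, 217 and 2342 TPM. All precursor genes but Pdgfra were highest in library 4, Olig1 only at 122.9 TPM beside 122.8 TPM in library 3. Pdgfra was lowest there, at 5.881 TPM beside 11.15 TPM in library 1. The part of these cells in the Atp2b2 level was not tested.

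The pump genes are spliced at 2 known places. At site A, in the first large cytosolic loop, exons can be added near the region that binds phospholipids. At site C, in the tail, an added exon shifts the reading frame and shortens the calmodulin-binding region, giving the forms called a, while the forms called b lack it. Atp2b2 has exons of both kinds among its 8 listed transcripts, and the 2 sequences below are shown because the transcripts that carry them took most of the gene's TPM. The first is the insert at site A found in Atp2b2-202, made of exons of 33, 60 and 42 bases, with the middle exon in capitals (chr6:113797110-113803779, minus strand, GRCm38). Its 135 bases encode 45 residues and keep the reading frame. The second is the exon of 172 bases at site C found in Atp2b2-206 (chr6:113755217-113755388, minus strand, GRCm38). Both were read from the GENCODE M21 transcripts, and both are coding.
Atp2b2-202 insert: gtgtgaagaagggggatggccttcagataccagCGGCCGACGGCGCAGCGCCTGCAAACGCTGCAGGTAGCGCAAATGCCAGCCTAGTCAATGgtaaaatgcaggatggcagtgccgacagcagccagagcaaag
Atp2b2-206 exon: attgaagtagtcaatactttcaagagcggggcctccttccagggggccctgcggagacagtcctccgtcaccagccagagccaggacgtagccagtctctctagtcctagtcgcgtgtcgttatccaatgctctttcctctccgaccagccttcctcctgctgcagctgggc

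Atp2b2-202, the transcript with the insert at site A, stood at 10.22, 14.78, 18.4 and 44.07 TPM in libraries 1 to 4. It had the highest TPM of any Atp2b2 transcript in 4 of 4 libraries. By estimated counts, which are not corrected for length, it led only in libraries 3 and 4. It had 706.6 counts beside 834.8 for Atp2b2-201 in library 1, and 950.9 beside 967.7 for Atp2b2-206 in library 2. Its mean share of the gene was 49.2% by TPM and 39.4% by estimated counts. Its share of the TPM of full-length forms (those with a coding length of at least 3000 bases) was 39.62, 45.53, 52.35 and 68.18%, or 51.4 ± 12.3% (SD, n = 4). This transcript also starts at a promoter of its own, between the distal and proximal starts of the gene, and has a 3′ UTR of only 243 bases beside 2868 bases in Atp2b2-201. The start, the insert and the 3′ end therefore cannot be told apart as the source of its reads. Of its 4556 distinct words of 31 bases, the unit that kallisto matches, 351 occur in no other Atp2b2 transcript.

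Atp2b2-206, with the exon at site C, stood at 6.464, 9.289, 9.001 and 17.34 TPM. Its share of the full-length forms was 25.05, 28.62, 25.6 and 26.82%, or 26.5 ± 1.6% (SD, n = 4), a narrower spread between libraries than that of Atp2b2-202. The annotation marks it as a target of nonsense-mediated decay, the pathway that degrades messages with an early stop codon, so it is not counted among the protein-coding transcripts. Its exon at site C is followed by another of 127 bases, which holds the stop codon. Atp2b2-201, which starts at the proximal promoter and has neither insert, ran the other way from Atp2b2-202 across the libraries. It stood at 7.741, 5.965, 5.689 and 2.629 TPM, or 30, 18.37, 16.18 and 4.068% of the full-length forms. None of its 7037 words is its own, so no single word sets it apart from the other Atp2b2 transcripts. Together the forms with neither insert took 35.33, 25.85, 22.05 and 5%, highest in library 1 and lowest in library 4. The 2 transcripts from the distal start, Atp2b2-203 and Atp2b2-206, took 30.37, 36.1, 31.47 and 27.75%. The RefSeq promoter window at the distal start held 27 CpG, that at the middle start 8 and that at the proximal start 12.

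**Figure D2:**
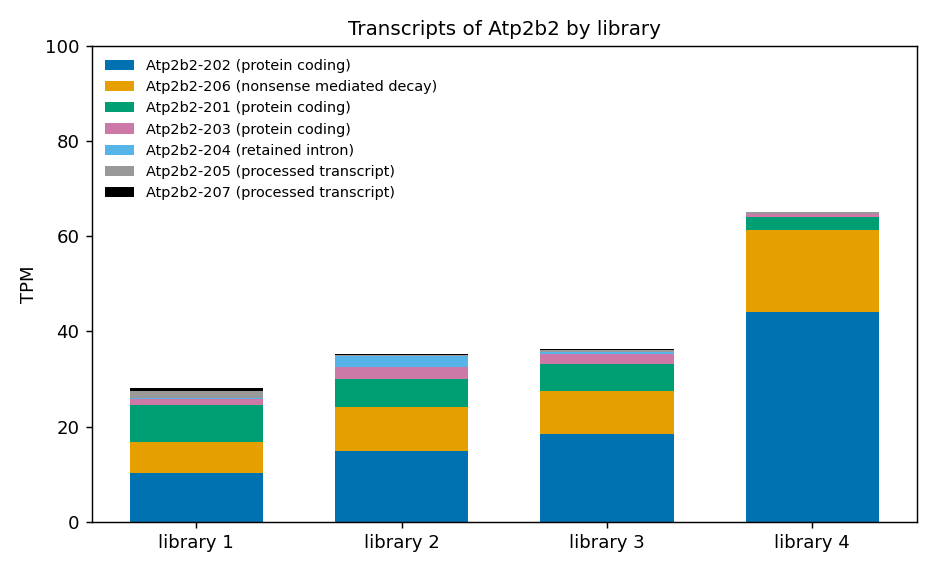
TPM of each Atp2b2 transcript, stacked, in libraries 1 to 4, with the annotated type of each in the legend; the height of a column is the level of the gene. The segment of Atp2b2-202 is 10.22 TPM in library 1 and 44.07 TPM in library 4, while that of Atp2b2-201 is 7.741 TPM in library 1 and 2.629 TPM in library 4.

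Atp2b3, on the X chromosome (chrX:73503086-73571005, plus strand, GRCm38), had the lowest mean. It had no count in libraries 1 and 4, the 2 deepest, and stood at 0.5711 TPM in library 2 and 0.5121 TPM in library 3, from 32.07 and 21 estimated counts. A count of 0 still allows up to 3 counts, which would be 0.0429 TPM in library 1 and 0.042 TPM in library 4, counting error only. The mean of 0.271 ± 0.314 TPM (SD, n = 4) lay 0.69 ± 0.18 (SE) below 1 TPM on the log2(TPM + 1) scale, a difference of -0.69 (limma, adjusted p = 0.004645). Without library 2 the mean was 0.1707 TPM. Atp2b3-201 held 82.7% of the TPM in library 2 and 100% in library 3.

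Atp2b4, on chromosome 1 (chr1:133699457-133801041, minus strand, GRCm38), had the second highest mean over all transcripts and the highest over protein-coding transcripts, and 1 short transcript carried it. The gene stood at 31.97, 60.78, 17.12 and 22.01 TPM in libraries 1 to 4, from 217, 411.8, 163.2 and 416 estimated counts. Library 2 was highest, and the mean was 32.97 ± 19.54 TPM (SD, n = 4), 3.92 ± 0.39 (SE) above 1 TPM on the log2(TPM + 1) scale (limma, adjusted p = 2.575e-05). Of this, Atp2b4-208 gave 30.64, 57.46, 14.44 and 16.9 TPM, or 95.86, 94.53, 84.32 and 76.8% of the gene's TPM. The same transcript held only 50.2, 87.33, 16.26 and 30.83 estimated counts, a mean share of 15.4% of the gene's counts where its mean share of TPM was 87.9%.

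Atp2b4-208 is a single exon of 243 bases (chr1:133701639-133701881, minus strand) that the annotation calls protein-coding and that lies wholly inside the last exon of Atp2b4-206, the longest transcript of the gene. Its effective length, the number of positions at which a fragment could start, was 102 to 114 bases, beside 11560 to 11575 bases for Atp2b4-206. Its sequence is 91.4% purine with an unbroken purine run of 183 bases and 50 copies of GAA. A stretch of 30 bases within it (bases 41 to 70 of the transcript, chr1:133701812-133701841, minus strand) is shown because it is a plain repeat of that triplet.
Atp2b4-208 stretch: aagaagaagaagaagaagaagaagaagaag

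None of the 174 distinct words of 31 bases in Atp2b4-208 is absent from the other Atp2b4 transcripts, and 57 of them (32.8%) also occur in transcripts of 109 other genes. By contrast, 254 of the 11617 words of Atp2b4-206 occur in other genes. Without transcripts shorter than 300 bases, a limit chosen after the data were seen, Atp2b4 stood at 1.322, 3.327, 2.685 and 5.105 TPM from 166.8, 324.5, 147 and 385.2 estimated counts. The mean was then 3.11 ± 1.57 TPM (SD, n = 4), and library 4 rather than library 2 was highest. The gene remained above 1 TPM, by 0.96 on the log2(TPM + 1) scale (limma, adjusted p = 0.01856). The libraries fell in the same order for the summed erythroid markers, at 59.85, 641.4, 449.4 and 2342 TPM in libraries 1 to 4. The same order held for the summed oligodendrocyte markers, at 2515, 3661, 3316 and 4343 TPM. The part of red blood cell or oligodendrocyte RNA in the Atp2b4 level was not tested.

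**Figure D3:**
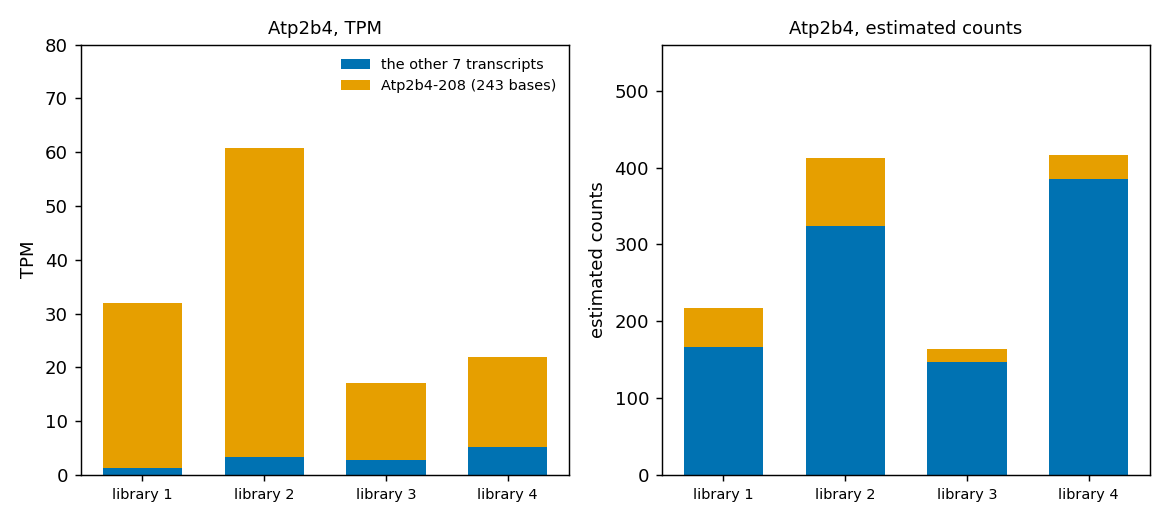
Atp2b4 in libraries 1 to 4 as TPM (left) and as estimated counts (right), split into the 243-base Atp2b4-208 and the other 7 transcripts. Atp2b4-208 fills most of each TPM column, 14.44 to 57.46 TPM, and a small part of each count column, 16.26 to 87.33 estimated counts.

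The full-length forms of Atp2b4 summed to 1.145, 2.848, 1.558 and 4.054 TPM. Those with the exon at site C, Atp2b4-201 and Atp2b4-203, were at 0, 0.014, 0.476 and 2.018 TPM, or 0, 0.492, 30.55 and 49.79% of the full-length forms. Those without it and with a long 3′ end, Atp2b4-206 and Atp2b4-207, were at 1.145, 2.128, 0.817 and 1.283 TPM. The forms with the exon had no count in library 1 and their highest share in library 4. Of their 8291 distinct words, 248 occur in no Atp2b4 transcript without the exon.

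The exchangers lay near or below 1 TPM. Slc8a1, on chromosome 17 (chr17:81373105-81738377, minus strand, GRCm38), was the highest of them, at 1.285, 1.999, 1.787 and 1.828 TPM from 55, 80, 54 and 80 estimated counts. All 4 values lay above 1 TPM and close together, with a mean of 1.725 ± 0.307 TPM (SD, n = 4). The difference from 1 TPM was 0.44 ± 0.09 (SE) on the log2(TPM + 1) scale and did not pass the test (limma, adjusted p = 0.05882). It passed when only protein-coding transcripts were tested (limma, adjusted p = 0.0332). All 3 listed Slc8a1 transcripts are protein-coding, so its own values were the same there and only the other genes tested differed. It also passed when TPM was rescaled over nuclear protein-coding genes (0.72, adjusted p = 0.0094), a rescaling that moved the median gene up by 0.40. The tables list 3 of the 6 annotated Slc8a1 transcripts, of 2877 to 2913 bases. The annotated Slc8a1-204, whose 3′ UTR has 15586 bases, is not among them, so reads from sequence found only in it were not counted. Reads from any sequence that it shares with the listed transcripts would be counted under those. Slc8a1-201 held 63.89, 100, 100 and 53.42% of the gene's TPM, and Slc8a1-202 held the rest of it in libraries 1 and 4, at 36.11 and 46.58%. Slc8a1-202 was quantified at 2877 bases and has 3180 bases in GENCODE M21, so the quantified sequence is not the M21 one.

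Slc8a2, on chromosome 7 (chr7:16129826-16161063, plus strand, GRCm38), stood at 0.7533, 0.3774, 0.0908 and 0.173 TPM, from 60, 25, 4 and 12 estimated counts. Library 1 was highest in each measure, and the mean of 0.349 ± 0.295 TPM (SD, n = 4) became 0.2137 TPM without it. The difference from 1 TPM was -0.59 ± 0.15 (SE) on the log2(TPM + 1) scale (limma, adjusted p = 0.005636), and -0.73 without library 1. Library 1 also had the highest sum of neuronal markers, 1395 TPM beside 1123 to 1173 TPM, and of neuroblast markers, 352.9 TPM beside 190.3 to 236.6 TPM. Most of the neuronal sum in library 1 was Ppp1r1b, at 757.2 TPM. All neuronal genes were highest in library 1 but Slc17a7, highest in library 3, and Slc12a5, highest in library 4. The part of neurons in the Slc8a2 level was not tested. The shorter Slc8a2-201 held 0, 49.93, 100 and 69.43% of the gene's TPM and the longer Slc8a2-202 held 100, 50.07, 0 and 30.57%, so neither form led in every library, on 4 to 60 estimated counts.

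Slc8a3, on chromosome 12 (chr12:81197915-81333180, minus strand, GRCm38), varied most among the exchangers. It stood at 0.9892, 2.35, 0.9488 and 0 TPM, from 68.6, 147.6, 49.69 and 0 estimated counts. The library without a count was library 4, the deepest, where 3 counts on the longest transcript, Slc8a3-202, would have been 0.0394 TPM. The mean was 1.072 ± 0.967 TPM (SD, n = 4) and the difference from 1 TPM -0.08 ± 0.36 (SE) on the log2(TPM + 1) scale (limma, adjusted p = 0.8109). The sign of this difference was not stable: it was 0.23 without library 4, 0.12 with rescaled TPM and 0.11 with edgeR. Without library 2 the mean was 0.646 TPM. The gene has alternative exons of 104 and 107 bases in the cytosolic loop region that is spliced in this family. The form with the 104-base exon, Slc8a3-202, held 0.773, 1.913, 0.9488 and 0 TPM. The form with the 107-base exon, Slc8a3-203, was seen only in library 1, at 0.216 TPM and 11.05 estimated counts.

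Within libraries the paralogs were ordered by log2 ratios of TPM + 1 over protein-coding transcripts, in 6 pairs of pumps and 3 pairs of exchangers. Atp2b2 was above Atp2b1 in 4 of 4 libraries, with a log2 ratio of Atp2b1 over Atp2b2 of -0.77 ± 0.60 (SD), or 1.71-fold. By CPM of the estimated counts this ratio was -0.40, with Atp2b2 higher in 3 of 4 libraries, and with only the most abundant coding transcript of each gene it was -0.26, with each gene higher in 2 of 4. Atp2b1 was 3.74 ± 0.34 above Atp2b3 and Atp2b2 was 4.51 ± 0.74 above Atp2b3, each in 4 of 4 libraries. Slc8a1 was 1.03 ± 0.44 above Slc8a2 and 0.56 ± 0.65 above Slc8a3, each in 4 of 4 libraries, although over all transcripts Slc8a1 was above Slc8a3 in 3 of 4. By CPM, which does not correct for length, Slc8a1 was above Slc8a2 in 3 of 4 libraries (1.09) and above Slc8a3 in 2 of 4 (0.34), and without library 4 the ratio to Slc8a3 was 0.25. Slc8a2 over Slc8a3 was -0.47 ± 0.60, with Slc8a3 higher in 3 of 4 libraries (exact sign-flip p = 0.375, adjusted 0.4167). Over protein-coding transcripts, each pair with 1 direction in 4 of 4 libraries had an exact sign-flip p = 0.13, adjusted 0.16.

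The pairs with Atp2b4 turned on its short transcript. With it, Atp2b1 was below Atp2b4 in 4 of 4 libraries, with a log2 ratio of -0.83 ± 0.71, and in 3 of 4 when only the most abundant coding transcript of each gene was used (-0.69). Without coding transcripts shorter than 300 bases Atp2b1 was above Atp2b4 in 4 of 4 libraries, with a log2 ratio of 2.37 ± 0.57, or 5.17-fold. Atp2b2 over Atp2b4 was -0.05 ± 1.16, with each gene higher in 2 of 4 libraries (exact sign-flip p = 0.875, adjusted 0.875), and 3.14 ± 0.33 without the short transcripts, in 4 of 4 libraries. Atp2b3 was below Atp2b4 in 4 of 4 libraries both with the short transcript, at -4.57 ± 0.80, and without it, at -1.37 ± 0.68.

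**Figure D4:**
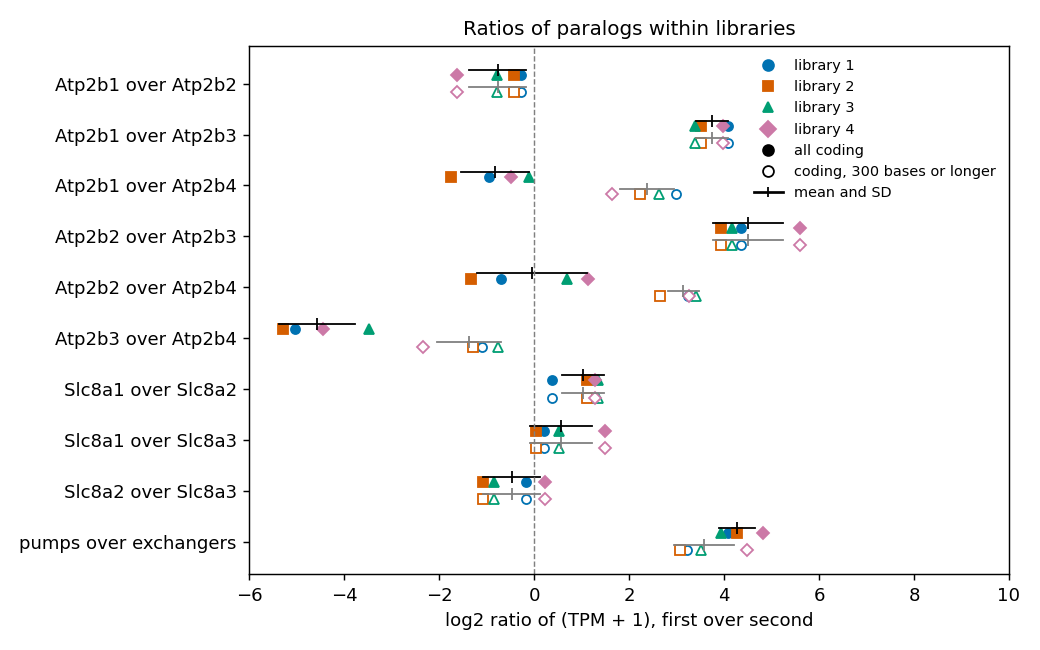
Log2 ratio of TPM + 1 for each pair of paralogs and for summed pumps over summed exchangers, 1 symbol per library, with the mean and SD above each row of symbols; filled symbols use all protein-coding transcripts and open symbols those of at least 300 bases. The ratio of Atp2b1 over Atp2b4 lies below 0 for filled symbols (mean -0.83) and above 0 for open symbols (mean 2.37), and the pairs of exchangers are the same in both.

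Other genes that handle calcium or set the gradients these transporters use were counted in 5 lists. Of 5 pumps of internal membranes, 2 were above 1 TPM, 2 in neither class and 1, Atp2c2, had no count. Atp2a2, the main pump of the endoplasmic reticulum, stood at 182 ± 30.3 TPM and Atp2c1, a Golgi pump, at 65.05 ± 12.4 TPM (SD, n = 4), both with a higher mean than any plasma membrane pump, while the median of the list was 1.391 TPM. Of 6 other sodium-calcium exchangers, 4 were above 1 TPM and 1, Slc24a1, below it, with a list median of 7.132 TPM. The highest was Slc8b1, the mitochondrial exchanger, at 33.29 ± 9.02 TPM, which lay above each of the 3 plasma membrane exchangers in every library. The potassium-dependent exchangers Slc24a4, at 8.491 ± 3.832 TPM, and Slc24a3, at 7.4 ± 2.049 TPM (SD, n = 4), were higher than Slc8a1 in every library as well.

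All 6 partners and activators of the pumps were above 1 TPM, with a list median of 362.3 TPM. They include Calm2, which encodes calmodulin, at 935.3 ± 23.86 TPM, and Bsg, which encodes basigin, a subunit-like partner of the pumps, at 477.2 ± 35.19 TPM (SD, n = 4). The lowest of this list was Slc9a3r2, a scaffold protein, at 20.9 ± 7.158 TPM. Of 12 genes of the sodium pump and its FXYD regulators, 10 were above 1 TPM, 1 in neither class and 1, Atp1a4, had no count, with a list median of 89.17 TPM. The regulator Fxyd1 stood at 652.3 ± 86.38 TPM and the beta subunit Atp1b2 at 298.9 ± 29.27 TPM (SD, n = 4). All 6 cytosolic calcium-binding proteins were above 1 TPM, with a list median of 51.62 TPM, from S100a1 at 404.4 ± 51.19 TPM, S100a6 at 208.5 ± 40.36 TPM and S100b at 79.4 ± 9.992 TPM to Calb2 at 3.134 ± 2.283 TPM. The call of Calb2 (limma, adjusted p = 0.04059) was lost without library 2 (0.1007), library 3 (0.07177) or library 4 (0.08605), which left 5 of 6. All of these counts stand beside 62.8% of all genes above 1 TPM.

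The genes most like Atp2b2 over the 4 libraries, among 16980 protein-coding genes, were Rnaseh2c, Gstm7 and Ctr9, at Euclidean distances of 0.34, 0.34 and 0.35 in log2(TPM + 1). Those most like Slc8a1 were Scn2b, 5330417C22Rik and Gm21244, each at 0.17. These are nearest neighbours in level over 4 libraries and nothing more is read from them.

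Because the design text names miR-204, the mature mmu-miR-204-5p (RefSeq, chr19:22750610-22750631, plus strand, GRCm38.p6) is shown with its seed, bases 2 to 8, in capitals, and its matches were counted in the members.
mmu-miR-204-5p: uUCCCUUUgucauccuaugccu

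The matching 7 bases, AAAGGGA on the message strand, were counted in the longest annotated 3′ UTR of each gene in GENCODE M21. There were 2 matches in the 3024 bases of Atp2b1, 2 in the 1883 bases of Slc8a2, 1 in the 746 bases of Atp2b3 and 1 in the 7234 bases of Atp2b4. No match was found in Atp2b2 (4706 bases), Slc8a1 (15586 bases) or Slc8a3 (1576 bases). Over 21005 genes 14.9% had at least 1 match, and 16% of those with UTRs of 1000 to 2000 bases, 31% at 2000 to 5000 bases and 53.4% at 5000 to 20000 bases. A match is a description of the sequence, and no library here was compared with and without the miRNA.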

How the data were processed

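RNA from 4 libraries of sorted neural stem cells was amplified (SMART-Seq v4) and sequenced in pairs on an Illumina HiSeq, per the labels' protocols. The submitters' processing notes name kallisto, sleuth and mm10; their versions, and the index's transcript release, were not given in the sources used here. Deposited tables hold estimated counts per transcript, in which kallisto divides reads shared between transcripts by estimate. The deposited TPM values are those counts divided by effective length and scaled to a fixed total. Of 99567 transcripts 98294 matched GENCODE M21 (GRCm38) by Ensembl identifier; the rest were left out (2.59 to 4.56% of TPM, 0.530 to 0.619% of counts). Mitochondrial genes held 13.5 to 18.4% of TPM. No molecular identifiers are named, so limits from a count of 0 cover counting error only. The kit is not stated to keep strand: annotated antisense genes overlap Atp2b2, Slc8a1 and Slc8a3, and reads of the 2 strands there cannot be told apart.

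Transcript TPM was summed per gene, and log2(TPM + 1) was tested against its value at 1 TPM with limma 3.58.1 (mean-variance trend, two-sided, adjusted p under 0.05). SEs printed are the SD over libraries divided by the square root of n, while limma's p uses a spread moderated over genes. The 10 log2 ratios were tested by exact sign-flip permutation. As alternatives, estimated counts were rounded and fitted with edgeR 4.0.16, the F statistic against 1 TPM being formed from edgeR's fitted and null deviances, and TPM was scaled by TMM and by DESeq2 1.42.0 size factors. The limma and edgeR tests of a gene against 1 TPM were tried on simulated counts. Members and lists were chosen with earlier results of these data known. Named were all members, their transcripts with at least 10% of a gene's TPM in any library (others where a sum or a form needed them), at most the 3 highest and the lowest gene of each list, and the 3 genes nearest in level to the highest pump and exchanger; 2 list genes that this rule names are not reported here. Words of 31 bases were compared on both strands over all matched transcripts, as GENCODE M21 gives their sequence.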

Additional observations from a re-analysis of the deposited data

Results flagged for a closer look

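A value far from the rest was looked for in 38 sets of 4 library values: the 7 gene levels, the 10 ratios, 14 transcripts with at least 10% of their gene's TPM in any library, and 7 shares of Atp2b2 forms. It was found in 3 of them, each a transcript counted in a single library and at 0 in the other three. Atp2b3-203 had 0.0988 TPM in library 2, Slc8a3-203 had 0.216 TPM in library 1 and the retained-intron transcript Slc8a3-205 had 0.437 TPM in library 2. Any set with a single value above 0 stands out in this way, so the rate of about 1 in 20 sets that chance gives does not apply to them. They rest on 6.43, 11.05 and 15.06 estimated counts.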

How the results depend on the processing

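At 4 libraries no exact test could pass 0.05, so the ratios rest on their size and direction. For genes near 0 TPM the size also depended on the value added to TPM. With 0.1 added in place of 1, Atp2b1 over Atp2b3 was 5.95, Atp2b2 over Atp2b3 6.76 and Atp2b3 over Atp2b4 -6.81. Slc8a1 over Slc8a2 was then 2.24, Slc8a1 over Slc8a3 1.38 and Slc8a2 over Slc8a3 -0.86. Pumps over exchangers was 4.64, and the pairs among Atp2b1, Atp2b2 and Atp2b4 moved little. Over the alternatives, 83 values of the ratios kept the sign of their mean and 7 reversed, while 40 counts of called genes or members stayed within 1.5 times and 2 moved further. Members above 1 TPM numbered 4, not 3, with rescaled TPM and with coding transcripts only, where Slc8a1 joined, and genes above the level numbered 9890 at 5 TPM. The members below 1 TPM numbered 4 when the level was 5 TPM, and 0 with edgeR, where 0 also passed at an unadjusted p under 0.05, against 2 with limma. Against 5 TPM Slc8a1 stood at -1.15. Slc8a3 turned to 0.12 with rescaled TPM, 0.11 with edgeR and 0.23 without library 4 (-0.35 to 0.23 with each library left out). Atp2b1 over Atp2b4 turned to 2.39 by CPM and 2.37 with coding transcripts of at least 300 bases, 2 settings that take weight from the short Atp2b4-208. Atp2b2 over Atp2b4 turned to 0.40 with all transcripts, 2.79 by CPM and 3.14 with coding transcripts of at least 300 bases, and ranged from -0.45 to 0.37 with each library left out (0.16 without library 1, 0.37 without library 2). For changes not explained by the setting itself the cause was not tested. With each library left out the genes above 1 TPM numbered 12170 to 12423, and 3 members above and 2 below remained in number. No paired analysis was possible because the labels give 1 group.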
